A study of Enchytraeus crypticus with 54 samples.

Results

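The subject here is a set of 100 array probes whose signal was higher at 7 days than at 3 days in unexposed *Enchytraeus crypticus*, followed through the copper exposures of the same experiment. They were chosen from 19499 probes with a positive and significant signal on all 54 arrays, out of 43750 probes on the array that were not controls. The level of a probe is its log2 processed signal minus the median of the array over the 19499 probes, so 0 is a probe of median brightness and a step of 1 is a doubling of signal. A probe was eligible when its lowest Control array at 7 days lay above its highest Control array at 3 days, which held for 2199 probes (11.3% of the 19499). The 100 with the largest difference between the control means were kept.

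The worms were pools of 20 adults with a well-developed clitellum, the glandular band that secretes the cocoon, and RNA came from the whole body. In the copper groups the soil held copper as Cu-Field (soil with an old contamination from the field), Cu-NWires (copper nanowires), Cu-NPs (copper nanoparticles) or CuNO3 (copper nitrate, a soluble salt). Each form was used at EC50 and at EC20, the concentrations that lower reproduction by 50% and by 20%, and each was sampled after 7 days and after 3 days. Control worms were kept in clean soil from the same Danish site for the same 7 and 3 days, and all 18 groups held 3 replicate pools, each on its own array. EC50 and EC20 are matched by effect on reproduction, so the forms differed in copper concentration.

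*E. crypticus* is a small white oligochaete of the soil litter that feeds on organic matter and microbes and is used in standard reproduction tests. Copper is an essential metal for such worms, as a cofactor of enzymes, and is toxic above a narrow range, where ions bind to proteins and generate reactive oxygen. A soluble salt offers these ions to the soil water at once, whereas particles, wires and aged soil release them through dissolution and desorption. The files pair the probes with names of assembled contigs or of single sequencing reads and with no gene, so the members are described by these names, and no function is attached to them.

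The control values that chose the members span a wide range. The difference between Control at 7 days and Control at 3 days had a median of 1.98 log2 over the 100 probes, which is 3.94-fold, with a lowest of 1.73 and a highest of 5.66. It exceeded 2 log2 for 49 probes and 3 log2 for 7. Over all 19499 probes its median was -0.07. The probe ranked 100, read GYUW2K402GNPZQ, had 0.79, 0.83 and -0.20 log2 on the Control arrays at 7 days, against -1.46, -1.43 and -0.87 at 3 days, a difference of 1.73. Just outside, the next read by rank, GYUW2K401CGTYQ, differed by 1.72. These values are what the choice rests on, so they are a description and carry no test.

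At the median the members were dimmer than all probes. Their mean level over the 48 copper arrays had a median of -0.53 log2, against -0.04 for all probes, yet it ranged from -2.85 to 6.61, and 40 of the 100 lay above 0. A total of 35 members were marked well above background on every array, compared with 65.8% of all probes. On the control arrays, 96 members were well above background on all 3 arrays at 7 days, against 56 at 3 days, and 5 members were on none at 3 days. Control arrays had medians of 114, 115 and 47.5 intensity units at 7 days, against 57.6, 81.2 and 52.9 at 3 days. The part of brightness in the choice was not tested. A contig named 36 of the members and a read 64, while contigs named 46.9% of all probes. No member spot was saturated. The spread between arrays of 1 copper group had a median SD of 0.71 log2 over the members, against 0.46 over all probes.

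Most members also rose with time in copper-exposed worms, though not in every form. On the arrays of copper groups, which took no part in the choice beyond the detection filter, the mean of the 8 time differences (7 days minus 3 days) had a median of 0.64 log2 over the members, against -0.07 over all probes. It was above 0 for 92 of the 100. With limma over all 54 arrays and a Benjamini-Hochberg adjusted p under 0.05, 61 members were called higher at 7 days and 0 lower. Among all probes tested, 6.96% were called higher and 11.5% lower. Scaling by SVCD (the no-variation method of the study, which sets arrays by probes that do not differ between groups) moved the median of all probes to 0.23 log2 and called 91 members higher, with 8212 of all probes higher and 466 lower, against 1358 and 2248 by median scaling. In a bulk extract of whole worms, fewer cells of a type and less RNA per cell cannot be told apart.

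The 14 slides bear on this count. Among the copper treatments only Cu-NWires EC50 had arrays of both days on the same slide. In the others the time change is also a difference between slides. Entering slide as a block in the same fit left 4 members called higher (contig23889, GYUW2K402ITFO6, contig18083 and GYUW2K401CSWXR), while 89 of 100 kept a positive estimate with a median of 0.51 log2 (all probes: -0.03). With scan day as a block, 50 were called. The share of all probes called in either block fit is not given here. Within the arrays of the first scan day alone, 98 members had a positive mean change, with a median of 1.04 log2. There 10 members were called higher, and of all probes 55 were called higher and 8 lower. Within the second 89 members were positive with a median of 0.59 log2. There 1 member was called higher, and of all probes 67 were called higher and 93 lower. Each fit covers the 6 treatments that had both days there. Of the 35 members well above background on every array, 27 were among the 61 called.

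The treatments differed in how far the members moved. In CuNO3 EC50 worms the median time difference over the members was 1.67 log2, positive for 95 of 100, and in Cu-NPs EC50 worms it was 1.47 log2, positive for 93. Over all probes the medians were -0.18 and -0.19. At EC20 the medians were 0.81 log2 in CuNO3 worms (85 positive) and 0.68 log2 in Cu-NPs worms (85 positive). Cu-Field EC50 worms had 0.91 log2 (77 positive). In Cu-NWires worms the medians were -0.07 log2 at EC50 (47 positive) and 0.16 at EC20 (70 positive), and in Cu-Field EC20 worms -0.02 (48 positive), where those of all probes were 0.05, 0.02 and 0.03.

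**Figure D1:**
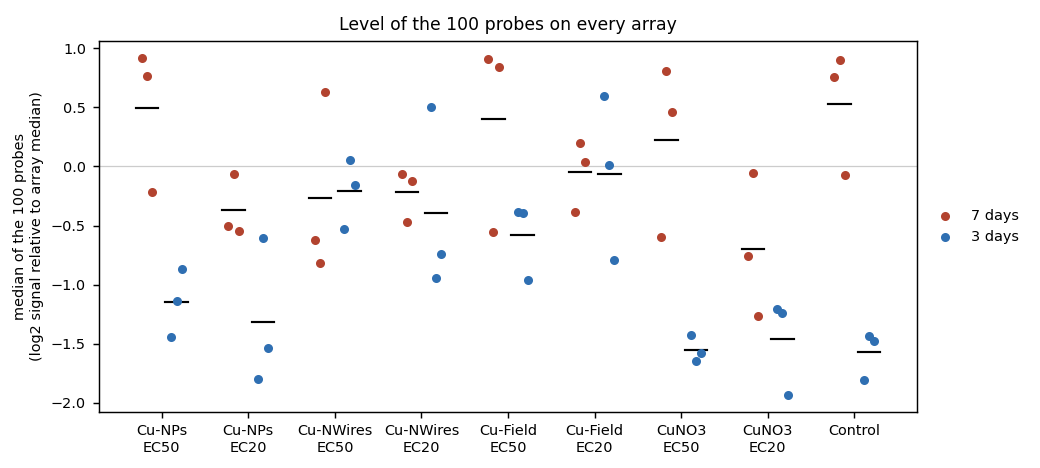
The vertical axis is the median level of the 100 probes on each array (log2 relative to the array median), with a point per array, 7 days in red left of 3 days in blue, and a black line at the mean of the 3 arrays. At 3 days the black lines lie between -0.58 and -0.06 in Cu-NWires and Cu-Field worms, against -1.57 to -1.15 in Cu-NPs, CuNO3 and Control worms.

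Read array by array, the medians of the 100 probes show which samples carry this. In CuNO3 EC50 worms they were -0.60, 0.81 and 0.46 log2 at 7 days, against -1.43, -1.65 and -1.58 at 3 days, with no overlap. In Cu-NPs EC50 worms they were 0.92, 0.77 and -0.21 at 7 days, against -1.45, -1.14 and -0.86 at 3 days, again apart. Cu-NWires EC50 worms had -0.62, -0.82 and 0.63 at 7 days, against -0.53, 0.06 and -0.16 at 3 days, and these overlapped. Cu-Field EC20 worms also overlapped, with -0.39, 0.20 and 0.03 at 7 days, against 0.60, 0.01 and -0.79 at 3 days.

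Levels of most pairs of members were positively correlated over the copper arrays. Over the 48 copper arrays, the 4950 pairs of members had a median Pearson correlation of 0.49, with quartiles of 0.25 and 0.68, and 91.3% were above 0. The points share arrays, groups and scaling, so this describes the set and was not tested. Differences between groups enter these correlations. No such value is given for all probes, so whether it is particular to the members is not known.

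Calls of individual members were most frequent in the 2 treatments with the highest medians. In CuNO3 EC50 worms 50 members were called higher at 7 days (5.6% of all probes were), and in Cu-NPs EC50 worms 21 (1.3% of all probes). At EC20 the counts were 8 in Cu-NPs worms (0.205% of all probes) and 6 in CuNO3 worms (0.154%), and leaving out any 1 of the 6 arrays gave 2 to 5 in Cu-NPs EC20 worms. In CuNO3 EC20 worms the count was 13 without replicate 1 at 7 days, 2 without replicate 3 at 7 days and 3 without replicate 3 at 3 days. No member was called lower in these 4 treatments, where 11.6%, 1.83%, 0.0359% and 0.195% of all probes were, and 2 members in CuNO3 EC20 worms and 0 in the other 3 were lower at an unadjusted p under 0.05. In the 2 Cu-NWires treatments 0 members and 0% of all probes were called by limma in either direction. At an unadjusted p under 0.05, 3 members were higher at EC20 and 0 at EC50, where 6 were lower. Of all probes 530 at EC20 and 931 at EC50 passed that threshold in either direction. Cu-Field worms had calls in both directions, with 3 members higher (0.523% of all probes) and 6 lower (0.718%) at EC50, and 1 higher (0.0103%) and 4 lower (0.108%) at EC20. In the EC20 treatment all 3 arrays at 7 days were read on the first scan day and all 3 at 3 days on the second. Time and scan day cannot be told apart within that treatment. The 3 higher at EC50 became 12 without replicate 2 at 7 days and 1 without any other of the 6 arrays, and the 6 lower became 3 without replicate 2 at 3 days. At EC20 the 4 lower became 0 without replicate 1 at 3 days or replicate 2 at 7 days, and 2 without replicate 3 at 3 days. By SVCD scaling 89 members were called higher in CuNO3 EC50 worms, 66 in Cu-NPs EC50, 42 in Cu-Field EC50 and 25 in CuNO3 EC20, where 9095, 4443, 5351 and 1465 of all probes were, against 1092, 254, 102 and 30 by median scaling. In the slide-block fit 0 members were called in any single treatment, although in CuNO3 EC50 worms 94 of 100 were positive with a median of 1.24 log2 and 30 were higher at an unadjusted p under 0.05. The count of 50 in CuNO3 EC50 worms was 19 without replicate 2 at 3 days and 21 without replicate 2 at 7 days, and the 21 in Cu-NPs EC50 worms became 0 without replicate 1 at 7 days and 32 without replicate 3 at 7 days. Counts of the slide-block fit and of fits lacking an array stand without the share over all probes.

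**Figure D2:**
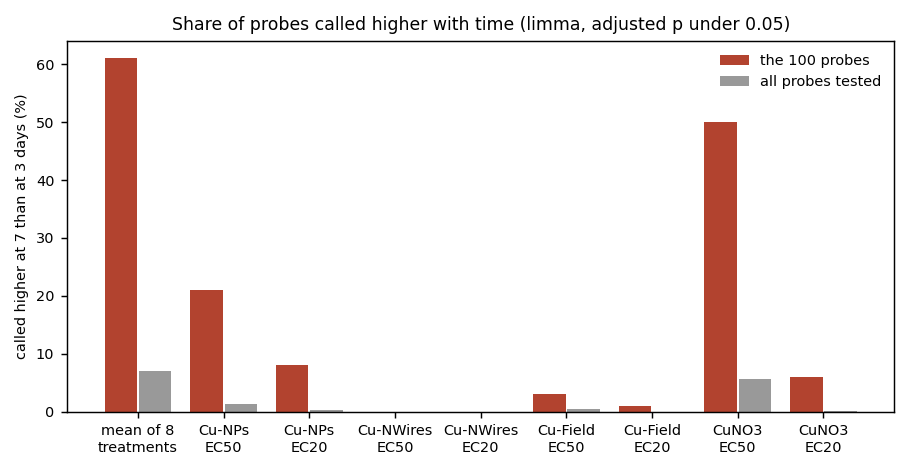
Bars give the percentage of probes called higher at 7 than at 3 days (limma, adjusted p under 0.05) in the mean of the 8 copper treatments and in each treatment, in red for the 100 probes and in grey for all 19499 probes. The red bars stood at 61% for the mean, 50% in CuNO3 EC50 and 21% in Cu-NPs EC50, and at 0% in both Cu-NWires treatments.

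The lists of the 2 EC50 treatments with most calls overlapped. Of the 21 members called in Cu-NPs EC50 worms (50 in CuNO3 EC50 worms), 20 were called in both, which is 20 of 21 and 20 of 50. The overlap among all probes is not given here, and whether it is particular to the members was not tested. Of the 100 members, 48 were called higher in no treatment, 28 in 1, 17 in 2, 3 in 3 (GYUW2K402FSF7J, GYUW2K401DGQIV and GYUW2K401APFF9) and 4 in 4 or more (GYUW2K402GMYHQ, contig23889, GYUW2K401BQGUI and GYUW2K402F9MCE), and 16 had a positive estimate in all 8. The 61 calls on the mean included 20 members called in no single treatment. These tallies also stand without the share over all probes.

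Contig contig23889 rose in most treatments. It was singled out after its values were seen, as the only member called higher in Cu-Field EC20 worms. Its values there describe the choice and support nothing. It ranked 12 in the controls. It had 1.61, 2.62 and 4.11 log2 in Cu-Field EC20 worms at 7 days, against 0.46, -1.14 and -0.69 at 3 days. In Cu-Field EC50 worms it had 2.09, 1.80 and 2.99 at 7 days, against -1.07, -0.56 and -1.52 at 3 days. The groups did not overlap in either case, and the time differences were 3.24 ± 0.56 (SE, adjusted p = 0.00637) and 3.34 ± 0.56 log2 (adjusted p = 0.00357, limma). In Cu-Field EC20 worms the 3 arrays at 7 days were read on the first scan day and the 3 at 3 days on the second. Time and scan day thus cannot be told apart within that treatment. The contig was called higher in 6 of the 8 treatments, and its mean change was 2.28 ± 0.20 log2, or 4.84-fold. In the slide-block fit the mean change was 2.20 log2 (adjusted p = 0.000476), the estimates in Cu-Field worms were 3.67 log2 at EC20 (adjusted p = 0.614) and 3.29 at EC50 (adjusted p = 0.266), and at EC20 leaving out the replicate 2 or the replicate 3 array of 7 days ended the call, with an adjusted p of at most 0.0644. In Cu-NWires worms it changed by 1.88 log2 at EC20 and 0.42 at EC50 without passing the test. The other members called higher in Cu-Field EC50 worms, named after their values were seen, were less even. Read GYUW2K401DGQIV had 3.02, 0.95 and 2.90 log2 at 7 days, against -0.39, -0.43 and -1.10 at 3 days. Contig contig02561 had 1.93, -2.20 and 4.55 at 7 days, against -2.32, -2.32 and -2.87 at 3 days. Their adjusted p was 0.0429 each in limma, which describes their choice.

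The forms parted at 3 days. At that day Cu-NWires worms had higher levels than CuNO3 worms for 98 of the 100 members, averaged over EC50 and EC20, with a median difference of 1.10 log2 (all probes: -0.16). Cu-Field worms did for 97 members, with a median of 1.15 log2 (all probes: -0.16). In limma 49 members were called higher in Cu-NWires worms (10.1% of all probes) and 44 in Cu-Field worms (7.66% of all probes), with 0 lower in both (19.7% and 18.5% of all probes were called lower). A total of 37 members were called in both comparisons, which share the CuNO3 arrays, and the overlap among all probes is not given. Cu-NPs worms differed from CuNO3 worms by a median of 0.25 log2 at 3 days. In limma 0 members were called (0.0205% of all probes higher and 0.00513% lower). At an unadjusted p under 0.05, 2 members were higher, and 1159 of all probes passed in either direction.

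Scaling, slide and scan day touch these counts. By SVCD scaling 90 and 92 members were called higher, with 12332 and 10450 of all probes higher and 307 and 392 lower, against 1972 and 1493 higher and 3842 and 3605 lower by median scaling. In the slide-block fit 28 members were called higher in Cu-NWires worms and 9 in Cu-Field worms, with medians of 1.16 and 1.30 log2. Within the second scan day, where the 3-day arrays of both forms and of CuNO3 could be compared, 0 (34 at an unadjusted p under 0.05) and 9 were called, with medians of 0.98 and 1.15 log2 and 87 and 94 members positive. Of all probes 3 were called higher and 5 lower in Cu-NWires worms there, and 74 and 102 in Cu-Field worms. All 3 Cu-NWires EC50 arrays and all 3 Cu-Field EC20 arrays at 3 days were read on the second scan day. The 12 Cu-NWires and Cu-Field arrays at 3 days were also mostly brighter than the 6 CuNO3 arrays, with array medians of 84.9 to 143 intensity units against 63.0 to 88.5, and the part of brightness in these differences was not tested. The count of 49 was 31 in a fit lacking the replicate 1 array of Cu-NWires EC20 at 3 days. For that fit and the slide-block fit the share of all probes called is not given.

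At 7 days fewer members were called between forms than at 3 days. Cu-NWires worms differed from CuNO3 worms by a median of -0.03 log2, with 2 members called higher (1.9% of all probes) and 6 lower (1.49%). Cu-Field worms differed by 0.44 log2, with 0 called higher (0.697%) and 7 lower (2.51%). By SVCD scaling 29 members were called higher and 7 lower in Cu-Field worms, with 5485 of all probes higher and 288 lower, against 136 and 489 by median scaling, and the median of all probes moved to 0.37 log2, against -0.04. The same scaling called 5 members higher and 6 lower in Cu-NWires worms, with 1087 of all probes higher and 300 lower, and turned the median over the members to 0.04 log2. Cu-NPs worms differed by 0.11 log2 with 0 calls by limma (0% of all probes), and by SVCD scaling the median was -0.02. At an unadjusted p under 0.05, 7 members were higher and 1 lower, and 1935 of all probes passed in either direction. The members higher in Cu-NWires worms were GYUW2K401DLQ92 and contig12801 (by 1.44 log2, adjusted p = 0.0406 in limma, named after its values were seen), and those lower in either form all belong to a group of 7 described after the controls. In the slide-block fit 1 member, GYUW2K401BQGUI, stayed lower in Cu-NWires worms and 0 in Cu-Field worms, with 8 and 9 lower at an unadjusted p under 0.05. Shares of all probes in that fit are not given.

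The difference in time change between forms was tested directly. The time change of Cu-NWires worms was lower than that of CuNO3 worms for 89 of the 100 members, by a median of 1.31 log2, and 20 members were called lower with 0 higher (1.43% and 3.17% of all probes). For Cu-Field worms it was lower for 83 members, by a median of 0.73 log2, with 17 called lower and 0 higher (3.17% and 2.8% of all probes). By SVCD scaling 68 and 22 members were called lower in Cu-NWires and Cu-Field by time, with 8075 and 1554 of all probes lower and 81 and 110 higher, against 279 and 618 lower and 618 and 546 higher by median scaling. That scaling moved the median of all probes to -0.70 log2 for Cu-NWires (0.17 by median scaling) and to -0.23 for Cu-Field (0.13). The members lay below it by 1.49 and 0.86 log2 under both scalings. This equality is fixed by construction, since each scaling shifts all probes of an array by the same amount. A total of 13 members were called in both, whose contrasts share the CuNO3 arrays, and the overlap among all probes is not given. For Cu-NPs worms the median difference was -0.06 log2 and 0 members were called by limma (0% of all probes). At an unadjusted p under 0.05, 2 members were lower, and 645 of all probes passed in either direction. With slide as a block the counts were 9 for Cu-Field, of which 7 are the group described after the controls, and 0 for Cu-NWires, where 22 members were lower at an unadjusted p under 0.05 and 9 had a positive estimate. Leaving out single arrays gave 17 to 19 for Cu-Field. For Cu-NWires it gave 8 when the replicate 2 array of the EC50 group was dropped, at 3 or at 7 days, and 36 when its replicate 3 array at 7 days was. Slide-block counts and those with an array left out stand without the share over all probes.

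**Figure D3:**
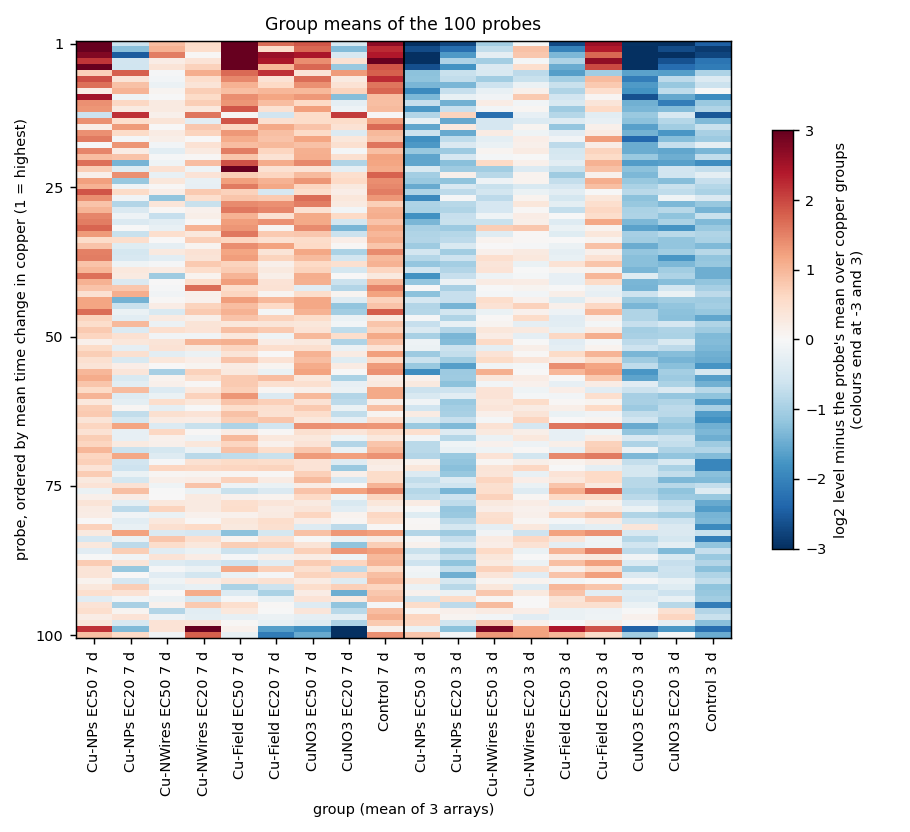
Each row is 1 of the 100 probes, ordered from the highest to the lowest mean time change in copper, and each column the mean of 3 arrays of a group, at 7 days to the left of the black line and at 3 days to the right. Colour is the log2 level minus the mean of the probe over the copper groups, and ends at -3 and 3. The CuNO3, Cu-NPs and Control columns are blue at 3 days for most rows, whereas the Cu-NWires and Cu-Field EC20 columns of that day are near white or red and the Cu-Field EC50 column is mixed.

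Levels beside those of the controls are given as a description only, since the control arrays of both days chose the members. A member was nearer to its mean in Control at 7 days than in Control at 3 days for 83 of 100 members in Cu-Field EC20 worms at 3 days, 64 in Cu-NWires EC50, 58 in Cu-NWires EC20, 53 in Cu-Field EC50, 30 in Cu-NPs EC50, 14 in CuNO3 EC50, 9 in CuNO3 EC20 and 8 in Cu-NPs EC20 worms. At 7 days the count was 94 in CuNO3 EC50 worms, 92 in Cu-NPs EC50, 86 in Cu-Field EC50, 76 in Cu-Field EC20, 73 in Cu-NWires EC20, 60 in Cu-NPs EC20, 54 in Cu-NWires EC50 and 44 in CuNO3 EC20. These counts stand without a share over all probes. At 3 days the median difference from Control over the members was 1.70 log2 in Cu-Field EC20 worms (all probes: -0.13). In Cu-NWires EC50 worms it was 1.38 (all probes: -0.10), against 0.11 in CuNO3 EC50 worms (all probes: 0.08). At 7 days this median was below 0 in all 8 treatments. It ran from -1.09 log2 in CuNO3 EC20 worms (all probes: 0.004) to -0.07 in Cu-Field EC50 worms (all probes: -0.08). At 3 days it was above 0 in all 8, from 0.11 to 1.70 log2. The choice of probes high in Control at 7 days and low in Control at 3 days fixes part of both.

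A group of 7 members was lower in Cu-Field worms at 7 days, either than at 3 days or than in CuNO3 worms. They are the 6 members called lower at 7 than at 3 days in Cu-Field worms and the 1 further member called lower than CuNO3 at 7 days, and were listed after their values were seen, so their values in Cu-Field worms describe the choice and support nothing. Their names, with the rank in the controls, are GYUW2K402GMYHQ (11), GYUW2K401BQGUI (14), GYUW2K401EKJD4 (60), contig15530 (62), GYUW2K402F9MCE (65), GYUW2K401DE429 (78) and GYUW2K401APFF9 (82). All 7 were called higher at 7 than at 3 days in CuNO3 EC50 worms, 6 in Cu-NPs EC20 worms, 5 in CuNO3 EC20 worms and 3 in Cu-NPs EC50 worms. All 7 were also called higher in Cu-Field than in CuNO3 worms at 3 days, by 1.40 to 2.98 log2, and lower at 7 days, by 1.17 to 2.11 log2.

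Per array, the median over the 7 was -1.71 to -0.63 log2 on the 6 Cu-Field arrays at 7 days, against 0.46 to 0.94 on the 6 at 3 days. On the 6 CuNO3 arrays it was 0.07 to 0.87 at 7 days, against -1.79 to -0.63 at 3 days. The 2 days did not overlap in either form, which for Cu-Field follows in part from the choice. Cu-NWires arrays held -0.86 to -0.45 at 7 days, against -1.10 to 0.94 at 3 days. Over the 48 copper arrays the 7 probes correlated pairwise at 0.77 to 0.99, and whether they share sequence was not tested.

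Read GYUW2K402GMYHQ was the clearest of these, and had the largest called difference in time change of both Cu-Field and Cu-NWires from CuNO3. In Cu-Field EC50 worms it had -1.23, -0.62 and 0.05 log2 at 7 days, against a range of 1.87 to 2.02 at 3 days. Cu-Field EC20 worms had -0.59, -0.36 and 0.18 at 7 days, against a range of 1.87 to 2.12 at 3 days. It thus stood within a narrow band at 3 days and lower on every array at 7 days. It fell by 2.53 ± 0.38 at EC50 (SE, adjusted p = 0.00144) and by 2.22 ± 0.38 log2 at EC20 (adjusted p = 0.00637, limma). Such falls are what the group was chosen on, so these p-values describe the choice. In EC20 worms scan day also changed with time, since the arrays at 3 days were read on the second and those at 7 days on the first. At EC20 the adjusted p was 0.0759 without replicate 1 at 3 days and 0.0644 without replicate 2 at 7 days.

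In CuNO3 worms the same probe moved the other way. CuNO3 EC50 worms had 1.99, 1.66 and 1.43 log2 at 7 days, against -0.17, -2.10 and -1.32 at 3 days, a rise of 2.89 ± 0.38 (adjusted p = 7e-05, limma). Control worms had 1.99, 1.60 and 1.37 at 7 days, against -1.28, -0.86 and -1.22 at 3 days, which the choice used. In Cu-NWires EC20 worms it had -0.45, -0.32 and -0.24 at 7 days, against -0.49, 0.01 and -0.03 at 3 days, with overlap. The time change was lower than in CuNO3 worms by 5.09 ± 0.38 log2 in Cu-Field worms (adjusted p = 6.67e-12) and by 3.21 ± 0.38 in Cu-NWires worms (adjusted p = 5.07e-06, limma). With slide as a block all 7 probes were called lower in Cu-Field by time, by 3.12 to 4.92 log2, and 0 of 7 in Cu-NWires by time, where this read had an adjusted p of 0.0538. The same fit called 0 of 7 in either time change of Cu-Field worms, with estimates of -3.10 to -1.81 log2 at EC50 and -2.18 to -1.54 at EC20. Cu-Field values chose the 7 probes, so their calls in Cu-Field by time describe the choice and support nothing.

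**Figure D4:**
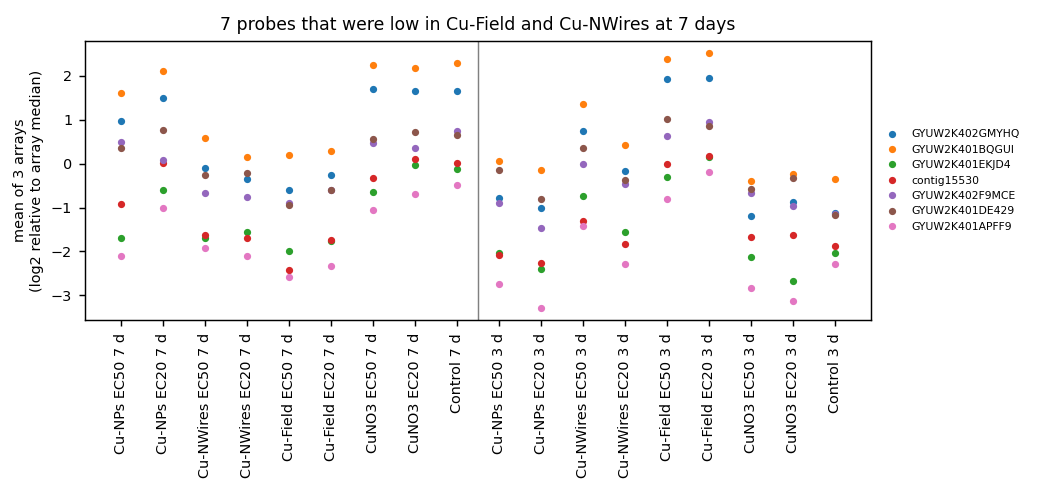
Points are the means of 3 arrays (log2 relative to the array median) of the 7 probes in each group, with 7 days left of the grey line and 3 days right of it. In Cu-Field worms, whose values chose them, all 7 lie low at 7 days and high at 3 days, and in CuNO3 and Control worms the reverse.

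The members with the largest control difference were of another kind, with a wide spread inside groups. Ranks 1 to 5 (contig15927, contig21264, GYUW2K402F73VR, contig03802 and contig03804) had SDs within copper groups of 2.44 to 2.93 log2, and each spanned 9.82 to 11.8 log2 over the 48 copper arrays. They correlated pairwise at 0.90 to 0.99, so largely the same arrays were high for all 5. An SD over 1.5 log2 was found for 11 of the members and for 0.856% of all probes.

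Contig contig15927, rank 1, had 4.87, 8.04 and 1.69 log2 on the Control arrays at 7 days, against -0.28, -2.27 and 0.19 at 3 days. Contig contig21264, rank 2, had 2.98, 7.12 and 0.92 at 7 days, against -2.21, -1.41 and -0.86 at 3 days. Their mean changes over the copper treatments were 2.40 ± 0.74 (SE, adjusted p = 0.0226) and 2.58 ± 0.73 log2 (adjusted p = 0.014, limma). In the slide-block fit their estimates were 2.05 (adjusted p = 0.498) and 2.45 log2 (adjusted p = 0.42), and in the scan-day block contig15927 had an adjusted p of 0.0507. Both exceeded 3 log2 on 11 of the 24 copper arrays at 7 days, against 3 of the 24 at 3 days.

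Read GYUW2K402F73VR rose most over the copper treatments, by 3.25 ± 0.81 log2 (adjusted p = 0.00634, limma), followed by contig03802 with 2.70 ± 0.78 (adjusted p = 0.0159). In Cu-NPs EC50 worms it had 7.56, 7.47 and 1.57 log2 at 7 days, against -1.56, -1.56 and -1.28 at 3 days, with no overlap. Cu-Field EC20 worms had -0.38, 5.26 and 4.83 at 7 days, against 6.09, 8.07 and -1.77 at 3 days, with overlap. In CuNO3 EC50 worms it had -0.96, 5.55 and 5.65 at 7 days, against -1.60, -1.33 and -1.25 at 3 days. Within each of these 7-day groups the highest array exceeded the lowest by more than 5 log2. With slide as a block its mean change was 3.02 log2 with an adjusted p of 0.318, and that of contig03802 was 2.40 with an adjusted p of 0.444.

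At the other end stood 2 bright reads whose mean change over copper was below 0. Read GYUW2K401EB6BI changed by -0.94 ± 0.53 log2 (adjusted p = 0.212, limma). It was at 4.25 to 5.97 on all 6 Cu-Field arrays at 3 days, against -4.25 to 5.61 at 7 days, where 1 pool stood apart at the lowest value. In CuNO3 EC20 worms it had 4.50, -0.91 and 0.20 at 7 days, against 4.17, 4.53 and 4.21 at 3 days.

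Read GYUW2K401DLQ92 changed by -0.70 ± 0.45 log2 (adjusted p = 0.271, limma), and differed between forms more than any other called member. Over the 6 arrays of a form at 3 days it ranged from 1.77 to 5.58 in Cu-NWires worms (median 5.32) and from 2.78 to 6.26 in Cu-Field worms (median 4.93), against -0.39 to 1.27 in CuNO3 worms (median 0.71), with no overlap. The differences were 4.11 ± 0.90 (adjusted p = 0.00191) and 4.26 ± 0.90 log2 (adjusted p = 0.0014), or 17.3-fold and 19.1-fold. At 7 days Cu-NWires worms held 2.15 to 6.47, against -3.69 to 2.83 in CuNO3 worms, a difference of 4.49 ± 0.90 log2 (adjusted p = 0.00756, limma). In the slide-block fit Cu-Field at 3 days and Cu-NWires at 7 days had differences of 5.36 and 4.14 log2 with adjusted p of 0.0964 and 0.291.

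**Figure D5:**
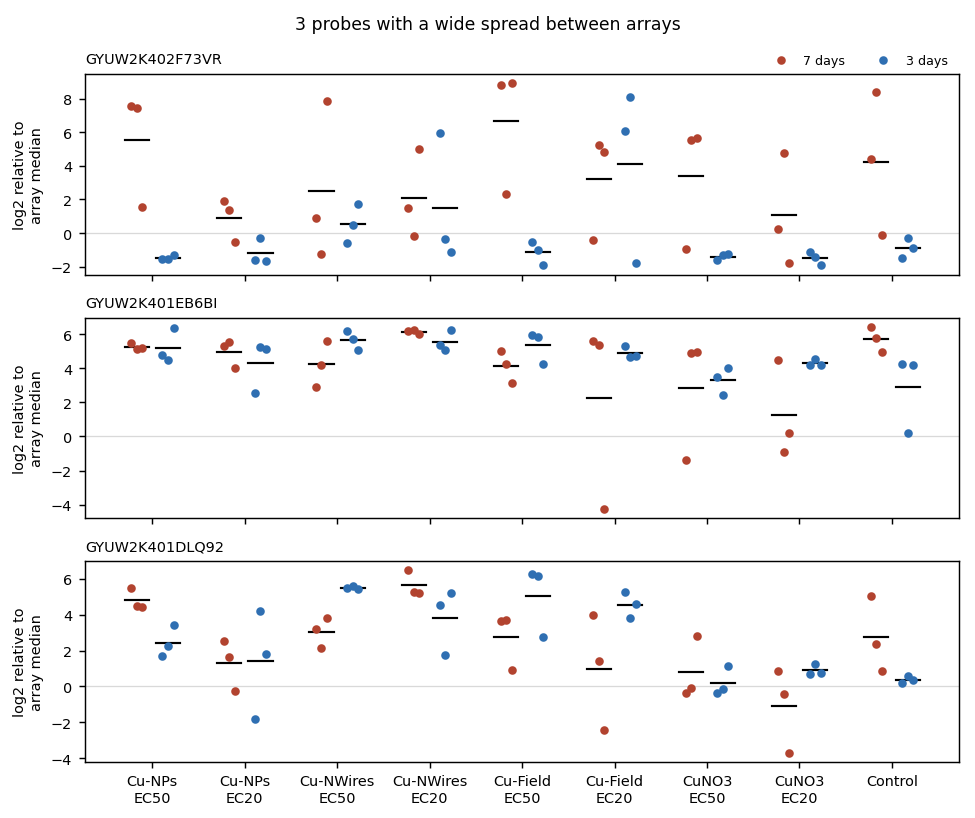
Points are single arrays (log2 relative to the array median) of 3 probes named above the panels, with 7 days in red left of 3 days in blue and black lines at the means of 3 arrays. Levels of GYUW2K402F73VR within 1 group reach from below 0 to above 7, and GYUW2K401DLQ92 is higher in Cu-NWires and Cu-Field than in CuNO3 worms at 3 days.

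The effect level left few calls among the members. In Cu-NPs worms at 3 days 1 member was called higher and 1 lower at EC50 than at EC20 (2.3% and 1.7% of all probes), and at 7 days 1 higher and 0 lower (1.64% and 2.18%). In the other 6 contrasts 0 members and 0% of all probes were called. In CuNO3 worms at 7 days, 21 members were higher at EC50 and 0 lower at an unadjusted p under 0.05. Of all probes 3359 passed that threshold in either direction. In Cu-NPs worms at 7 days 35 members were higher and 7 lower (5844 of all probes), and at 3 days 13 and 7 (4012). The median differences at 7 days were 0.76 log2 in CuNO3 and 0.88 in Cu-NPs worms (all probes: -0.08 and -0.10). In Cu-Field worms at 3 days 8 were lower and 0 higher (517 of all probes), with a median of -0.43 log2 (all probes: 0.07).

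The called members were GYUW2K402GNPZQ, contig06242 and GYUW2K402ITFO6. Read GYUW2K402GNPZQ had 0.40, 0.40 and 0.62 log2 in Cu-NPs EC50 worms at 3 days, against -1.21, -0.21 and -1.70 in Cu-NPs EC20 worms, a difference of 1.51 ± 0.44 (adjusted p = 0.0417, limma). Contig contig06242 had 1.27, 1.26 and -0.91 in Cu-NPs EC50 worms at 7 days, against -1.85, -1.30 and -3.01 in Cu-NPs EC20 worms, a difference of 2.59 ± 0.76 log2 (adjusted p = 0.0473). The groups did not overlap for either probe.

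Read GYUW2K402ITFO6 had -4.35, -3.37 and -3.14 log2 in Cu-NPs EC50 worms at 3 days, against -1.36, -1.45 and -2.47 in Cu-NPs EC20 worms (adjusted p = 0.0322, limma). It was well above background on none of these EC50 arrays, and on 2 of the 3 EC20 arrays, so only a bound can be given, and it was at least 2.80-fold lower at EC50. The bound sets each dim array at the weakest signal among its probes well above background, or at the value of the probe itself where that is higher. Under the slide block, normexp background correction or no filter, 0 members were called between effect levels, and a fit lacking the replicate 3 array of Cu-NPs EC50 at 7 days called 29. Shares of all probes called in these fits are not given. The 3 calls did not hold when most single arrays of their own groups were left out, with adjusted p up to 0.177, 0.259 and 0.177 for GYUW2K402GNPZQ, contig06242 and GYUW2K402ITFO6. Over the 48 copper arrays left out singly, the calls ended in 4, 25 and 5 fits. That of contig06242 thus also ended without arrays of other groups.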

How the data were processed

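Cy3-labelled RNA of 54 pools was hybridized to 1-colour Agilent arrays. The processed signals deposited by the authors are intensity values on a linear scale, made with Agilent Feature Extraction 10.7.3.1 (protocol GE1_107_Sep09, per the file headers), with no scaling between arrays. The deposited value table held the same intensity values to within rounding (ratio 0.995 to 1.005), and 0 of its columns lay outside the series. Other deposited flags served as filters. Replicate arrays correlated at 0.882 to 0.990.

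Groups came from the labels. Signals were taken to log2, and each array was centred on its median over 19499 probes (Median normalization). limma 3.58.1 in R 4.3.3 fitted 1 mean per group over 54 arrays, with Benjamini-Hochberg adjustment over all probes within each contrast at 0.05, and was tested on simulated data. Standard errors are those of limma. All tests were two-sided, and none was made on contrasts with the control arrays that chose the members. Named probes are the first 2 by rank, the 2 highest and 2 lowest by mean time change in copper, the largest called rise and fall of each contrast between forms or effect levels, and the probes just inside and just outside the edge. The 7 probes that fell in Cu-Field worms and contig23889 were added after their values were seen. The 100 members and these lists were chosen with earlier results of these data known.

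Alternatives were Quantile, SVCD (written anew, 1758 no-variation probes), 75th percentile, normexp (offset 50, on median signals, since the files used hold no mean signal), filters on dim probes, blocks for slide, scan day and replicate number, and leaving out arrays. Tables were read by data.table (1.17.8), and matplotlib (3.10.9) drew the plots. No probe sequence was used here.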

Additional observations from a re-analysis of the deposited data

Results flagged for a closer look

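By limma on the difference itself, the time change of 20 members was lower in Cu-NWires than in CuNO3 worms (1.43% of all probes). That of 17 members was lower in Cu-Field than in CuNO3 worms (3.17% of all probes). With slide as a block both counts were lower. Read GYUW2K402GMYHQ differed most in both comparisons, with -3.21 log2 in Cu-NWires minus CuNO3 and -5.09 log2 in Cu-Field minus CuNO3. It belongs to the group chosen on Cu-Field values, so its Cu-Field difference describes the choice. These results were picked out because the effect of time differed between forms by a test. No test for single outlying arrays was run within groups, which held 3 arrays each. The results without each array are given with the dependence on processing.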

How the results depend on the processing

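Quantile normalization and scaling to the 75th percentile left the counts of called members within 1.5 times of their values, except that Quantile called 1 member higher in Cu-NWires at 7 days (2 by median scaling) and 2 higher at EC50 in Cu-NPs worms at 3 days, and the 75th percentile 0 (1 by median scaling). They kept 91 and 98 of the 100 members, and ended 1 call of a named probe (GYUW2K402GNPZQ between effect levels, by the 75th percentile and also by SVCD). No called difference of a named probe changed sign under any alternative. Some small medians over the members did, namely the time change in Cu-Field EC20 worms (0.02 by Quantile and 0.04 by SVCD) and Cu-NWires EC50 worms (0.07 by normexp), and at 7 days Cu-NPs minus CuNO3 (-0.02 by SVCD, -0.08 within the first scan day) and Cu-NWires minus CuNO3 (0.04 by SVCD, 0.10 with the slide block). SVCD scaling kept 91 members, raised the median control difference to 2.47 log2, and called 25 members higher with time in CuNO3 EC20 worms, 89 in CuNO3 EC50, 66 in Cu-NPs EC50 and 42 in Cu-Field EC50, 2 lower in Cu-Field EC20, 68 lower in Cu-NWires by time, 90 and 92 higher in Cu-NWires and Cu-Field at 3 days and 30 between effect levels. The cause was not tested. Normexp kept 33 members, lowered the median control difference to 0.91 log2, and called 2 members higher in CuNO3 EC20 worms, 23 in CuNO3 EC50, 2 in Cu-NPs EC20, 5 in Cu-NPs EC50, 4 in Cu-Field EC20 and 5 in Cu-Field EC50, 6 lower in Cu-NWires by time, 20 and 26 higher in Cu-NWires and Cu-Field at 3 days and 0 between effect levels. The median level of the members was -0.53 log2, against -0.04 for all probes, and 40 of the 100 lay above 0. The offset shrinks differences between dim signals by construction, and its part in these counts was not tested. The normexp counts stand without the share over all probes.

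With only probes well above background on all arrays, 35 members remained to be tested, of which 29 were called higher in the mean time change, 19 in CuNO3 EC50, 5 in Cu-NPs EC20 and 13 in Cu-NPs EC50 worms, and 3 lower in Cu-Field EC50 worms. By time 10 and 9 were lower in Cu-NWires and Cu-Field, at 3 days 17 and 16 were higher, at 7 days 3 and 3 were lower, and 1 differed between effect levels. Without a filter the counts were 3 in Cu-NPs EC20, 4 in Cu-NPs EC50 and 1 in Cu-Field EC50 worms for rises, 2 for falls in Cu-Field EC20 worms, 9 for Cu-NWires by time and 0 between effect levels, with more probes adjusted over. Shares of all probes called under either filter setting are not given, so these counts do not show how far the members exceed them.

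The slide block left 4 calls in the mean time change, 0 rises and 0 falls in every single treatment, 0 and 9 for Cu-NWires and Cu-Field by time, 28 and 9 at 3 days, 1 and 0 at 7 days, and 0 between effect levels. It ended 17 of the 20 calls of named probes, with the direction unchanged in each, and spends degrees of freedom on 14 slides. Among the copper treatments only Cu-NWires EC50 had both days on the same slide, so time and slide are largely mixed within treatments. The shares of all probes called in the block fits are not given here. The scan-day block gave 2 falls in Cu-Field EC20 worms and otherwise counts within 1.5 times. Chosen after seeing the data, fits within the first scan day gave 10 calls in the mean time change, 0 and 2 lower in Cu-NWires and Cu-Field at 7 days, and fits within the second gave 1 in the mean time change and 0 and 9 higher at 3 days. In the mean time change 55 and 67 of all probes were called higher in these 2 fits, against 1358 over all arrays. On the first scan day 15 members were lower in Cu-NWires at 7 days at an unadjusted p under 0.05, and on the second 34 were higher at 3 days. Of all probes 1653 and 3548 passed that threshold in either direction. Fitting only the 6 arrays of a treatment called 0 higher in CuNO3 EC20, 0 in Cu-NPs EC20 and 0 in Cu-Field EC20 worms, 0 lower in Cu-Field EC20 and 6 higher in Cu-Field EC50 worms. The methods' t-test called 0 members in either direction in any treatment after adjustment, with 54 higher in CuNO3 EC50 and 47 in Cu-NPs EC50 worms at the threshold without adjustment.

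The replicate numbers did not pair the samples. Deviations from the group means correlated at -0.36 to 0.49 between same-numbered arrays of the 2 days of a treatment (median -0.05, 8 of 27 pairs above 0.1). The fit with the replicate number as a block called 61 members in the mean time change and 1 higher in Cu-Field EC50 worms, and its other counts were within 1.5 times.

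Leaving out 1 array at a time, membership itself changed, with 28 members kept without Control replicate 3 at 7 days, 64 without Control replicate 2 at 3 days and at most 80. Calls ranged from 49 to 71 in the mean time change, 2 to 13 in CuNO3 EC20, 19 to 62 in CuNO3 EC50, 2 to 5 in Cu-NPs EC20, 0 to 32 in Cu-NPs EC50, 0 to 1 (rises) and 0 to 4 (falls) in Cu-Field EC20, and 1 to 12 (rises, 12 without replicate 2 at 7 days) and 3 to 5 (falls) in Cu-Field EC50 worms. They ranged from 8 to 36 for Cu-NWires and 17 to 19 for Cu-Field by time, 31 to 54 and 30 to 60 at 3 days, 4 to 8 and 6 to 7 at 7 days, and 0 to 29 between effect levels (22 without replicate 2 of CuNO3 EC20 at 7 days). These ranges stand without the share over all probes. Depth is not defined for arrays, and 3 arrays a group and dim signal limit the precision.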
